A study of Homo sapiens with 4 samples.

Results

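Band 6p21.33 is a gene-dense stretch of the major histocompatibility complex (MHC) on the short arm of chromosome 6. It was taken as chromosome 6, 30400001 to 32100000 of hg19, a length of 1.7 Mb. Every interval of the 3 deposited lists that lay fully within it, on either strand, was a member. These were 1307 of 370807 intervals: 641 of 171755 clusters of replicate 1, 594 of 191899 clusters of replicate 2 and 72 of the 7153 regions of the series-wide list. No interval crossed an edge of the band. The band was chosen by a measured value, the share of its loci with a series-wide region (26 of 58), so enrichment inside it is described here and not tested.

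The series sought the RNA targets of LARP4 in HEK293, an established cell line from human embryonic kidney. The assay was eCLIP, in which protein and RNA are crosslinked, recovered together and sequenced. Cells received ultraviolet light of 254 nm at 400 mJ/cm2, and an antibody to LARP4 recovered the crosslinked RNA. A size-matched input, prepared without the antibody, was the reference. LARP4 eCLIP and size-matched input each had 2 replicates, which the labels call biological. The labels mark the eCLIP cells as WT and name no drug treatment for either group. Input values appear here only within the folds over input.

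LARP4 belongs to the La-related proteins. It is known to bind poly(A) and the poly(A)-binding protein and to stabilise mRNAs. The MHC carries class I genes, whose products show peptides to T cells, and the class III stretch, which holds complement, cytokine, chaperone and RNA-processing genes. Class I genes are highly variable between people and resemble each other, and the sources used here do not say how reads that match several places were treated.

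For orientation, the RefSeq table of GRCh38.p14 lists 84 protein-coding genes from HLA-E to FKBPL. In that order the first part holds MRPS18B, a protein of the mitochondrial ribosome, TUBB, which encodes a β-tubulin, its neighbour FLOT1, and VARS2, the mitochondrial valyl-tRNA synthetase. HLA-C and HLA-B follow as direct neighbours, both on the minus strand. MICA and MICB, ligands of an activating receptor of natural killer cells, come next on the plus strand. The class III part includes DDX39B, a helicase of mRNA splicing and export, the neighbours PRRC2A (plus strand) and BAG6 (minus strand, a chaperone), CSNK2B, CLIC1, LSM2, the heat shock genes HSPA1L, HSPA1A and HSPA1B, NELFE, SKIC2, and the complement genes C2, CFB, C4A and C4B. Of the 84 genes, 74 had a strand in the promoter table, 38 plus and 36 minus. These tables are of another build than the lists. They served only for names and neighbours, and no interval below was assigned to a gene. Sequences of the intervals were not analysed here, since no hg19 sequence was used.

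Each interval carries the authors' log2 fold over input and their −log10 p for being above input, which stops at 400. A cluster with a log2 fold of at least 3 (8-fold) and a −log10 p of at least 3 is called enriched. Most clusters of the band were above input, and clusters covered 32.2 kb of it in replicate 1 and 32.1 kb in replicate 2. The median log2 fold of its clusters was 1.70 in replicate 1 (middle range 0.92 to 2.46) and 1.77 in replicate 2 (1.01 to 2.56). The clusters ran from −3.58 to 5.79 in replicate 1 and from −3.19 to 5.26 in replicate 2. On the rest of chromosome 6 the medians were 1.11 and 1.01, and over all clusters 1.28 and 1.30.

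In replicate 1, 72 of 641 clusters were enriched, or 11.2% (Wilson 95% interval 9.02 to 13.9), where 5.01% of all clusters of that list were. In replicate 2, 88 of 594 were enriched, or 14.8% (12.2 to 17.9), where 5.50% of all clusters were. The rest of chromosome 6 had 3.30% (2.94 to 3.71) and 3.60% (3.24 to 3.98). The intervals treat clusters as independent and cover counting error only. Read numbers per cluster are unknown.

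Clusters of the band reached a −log10 p of at least 3 more often than those elsewhere on the chromosome, in 42.7% against 10.7% of cases in replicate 1 and in 42.6% against 9.65% in replicate 2. Among clusters that did reach it, the enriched share was no higher in the band. It was 26.3% against 30.9% on the rest of chromosome 6 in replicate 1, and 34.8% against 37.3% in replicate 2. At a −log10 p of at least 10, it was 41.2% against 58.1% and 50.0% against 65.4%. With any p, a log2 fold of at least 3 was present in 12.3% against 4.40% and 15.5% against 4.76%.

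The folds themselves were also less often tied. Clusters whose log2 fold was identical to 6 decimals to that of another cluster of the same set made up 55.7% of the band in replicate 1 and 58.8% in replicate 2. The corresponding shares were 93.3% and 94.1% on the rest of chromosome 6, a set with more clusters and thus more chances of a tie. The most frequent value on the rest of the chromosome, 1.70 in replicate 1 and 1.59 in replicate 2, was carried by 10.3% and 10.8% of its clusters. The most frequent value in the band covered 3.90% and 3.37%. The part of cluster p-values and ties in the share of enriched clusters was not tested.

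**Figure D1:**
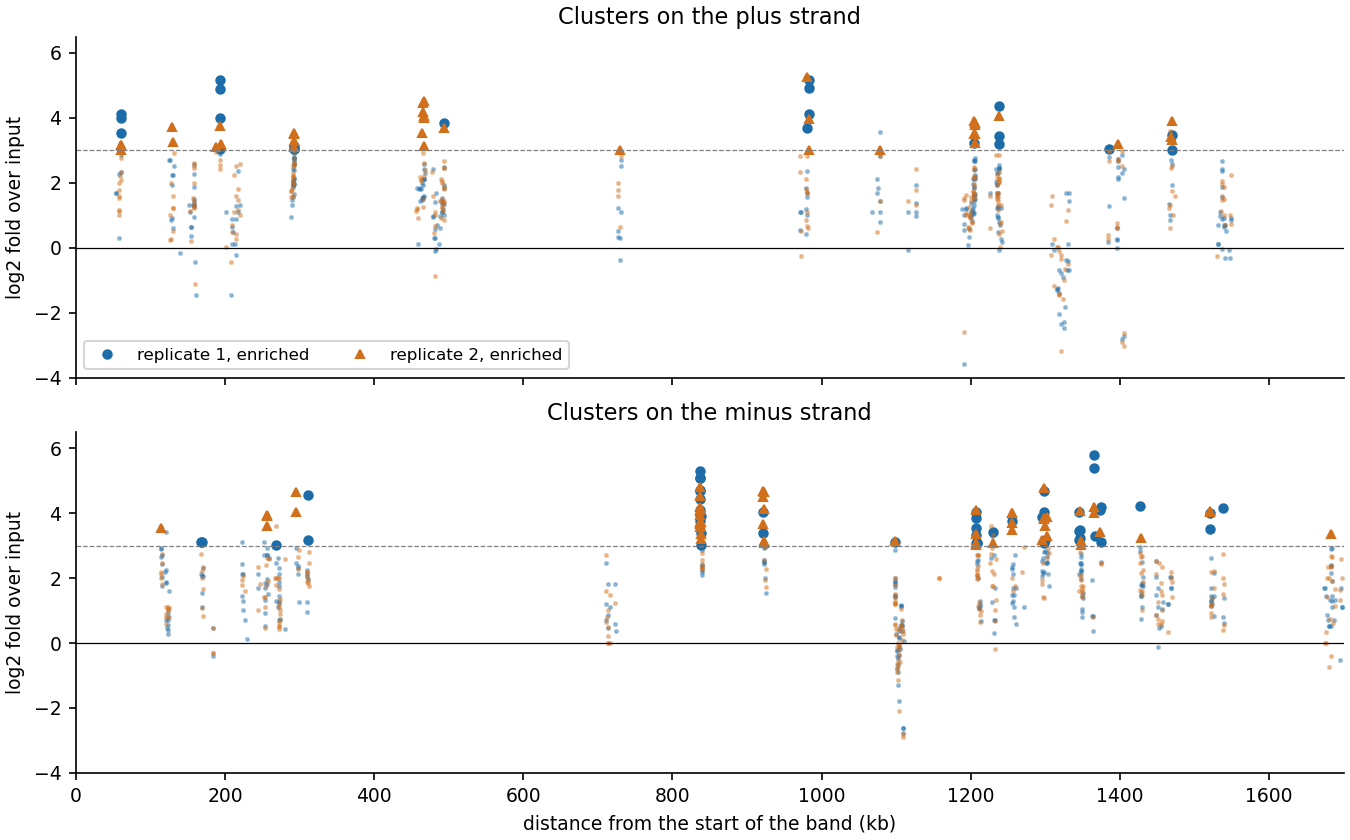
Log2 fold over input of the clusters of 6p21.33 against distance from the start of the band in kb, with the plus strand above and the minus strand below. Large symbols are enriched clusters and small dots all others, in blue for replicate 1 and orange for replicate 2, and the dashed line marks a log2 fold of 3. Enriched clusters of both replicates stand in narrow columns, with stretches of up to 216 kb without any cluster between them.

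Clusters filled the band unevenly. Stretches of at least 50 kb without a cluster of either replicate numbered 7. The longest, of 216 kb, ran from 30894190 to 31110250, followed by 144 kb from 30712275, 125 kb from 31948539 and 106 kb from 31130602. The stretch from 31200001 to 31500000, chosen after its values were seen, held few clusters but many enriched ones. Of its 63 and 65 clusters, 19 (30.2%) and 24 (36.9%) were enriched, in replicates 1 and 2. A single locus at 31236635 to 31239849, on the minus strand, held 12 of the enriched clusters in each replicate. The 800 kb before the stretch had 6.87% and 12.2%, and the 600 kb after it had 10.7% and 12.1%. Its 22 series-wide regions had mean log2 folds of 4.01 and 3.96 in replicates 1 and 2, against 3.32 and 3.55 for the 17 regions before it and 3.50 and 3.60 for the 33 after it.

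The regions are described next by locus. Same-strand clusters of either replicate that follow each other with at most 5 kb between them form a locus, which can join neighbouring genes or split 1 gene. The band held 58 loci, 27 of the plus strand and 31 of the minus strand, of which 10 and 16 held a region. The 26 loci with a region (44.8%, where 5.05% of all loci had one) had a median of 25.5 clusters over both replicates and a median length of 6.29 kb. Of them, 9 had 1 region, 8 had 2, and 7 with at least 4 regions held 41 of the 72. Another 9 loci had an enriched cluster in a replicate but no region, and 23 had no enriched cluster in either. The matching counts elsewhere are not given here.

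The minus-strand locus at 31236635 to 31239849, 3.22 kb long, held the most regions of the band, 12. It had 18 clusters in each replicate, of which 12 were enriched in each. All 12 regions were enriched in both replicates, with a mean log2 fold over the regions of 4.23 and 3.92 in replicates 1 and 2, or 4.08 ± 0.22 (SD, n = 2). The last 2 regions before the 3′ end, at 31236640 to 31236711 and 31236712 to 31236888, had a −log10 p at the limit of 400 in both replicates. The one nearer the end had log2 folds of 4.43 and 4.82, and the other 3.74 and 4.19. The region with the largest lower value of the band, at 31236897 to 31236950, had 5.09 and 4.54, or at least 23.3-fold over input in each replicate. The neighbours at 31237121 to 31237138 and 31237139 to 31237162 had 4.68 and 4.72 in replicate 1, and both took 4.09 from 1 cluster of replicate 2.

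Enrichment in this locus was not even along its length. Clusters within 782 bases of the 5′ end had log2 folds from 2.11 to 2.86 in replicate 1 and from 2.27 to 2.78 in replicate 2, all under the threshold. The first enriched cluster began 1994 bases from the 5′ end in replicate 1 and 2007 bases from it in replicate 2, and from there to the 3′ end every cluster of both replicates was enriched. No cluster of this locus was below input.

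At higher coordinates, the next locus of either strand was 81.9 kb away, at 31321770 to 31324940 on the minus strand. It held 5 regions with a mean log2 fold of 3.31 in replicate 1 and 4.33 in replicate 2, or 3.82 ± 0.72 (SD, n = 2). The 3 regions nearest its 3′ end were enriched in both replicates. At 31321981 to 31322072 the values were 4.05 and 4.70. The other 2 regions, at 31322257 to 31322303 and 31322410 to 31322437, were enriched in replicate 2 alone, with 2.49 against 4.65 and 2.55 against 4.12. On the plus strand, a locus at 31378319 to 31383016 held 4 regions with means of 4.47 and 3.79, or 4.13 ± 0.48 (SD, n = 2). Its highest replicate values were 5.16 in replicate 1, at 31382851 to 31382931, and 5.26 in replicate 2, at 31380196 to 31380238. Each replicate thus had its highest region at another place in the locus. These 3 loci carried 21 of the 22 regions of the stretch from 31200001 to 31500000.

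**Figure D2:**
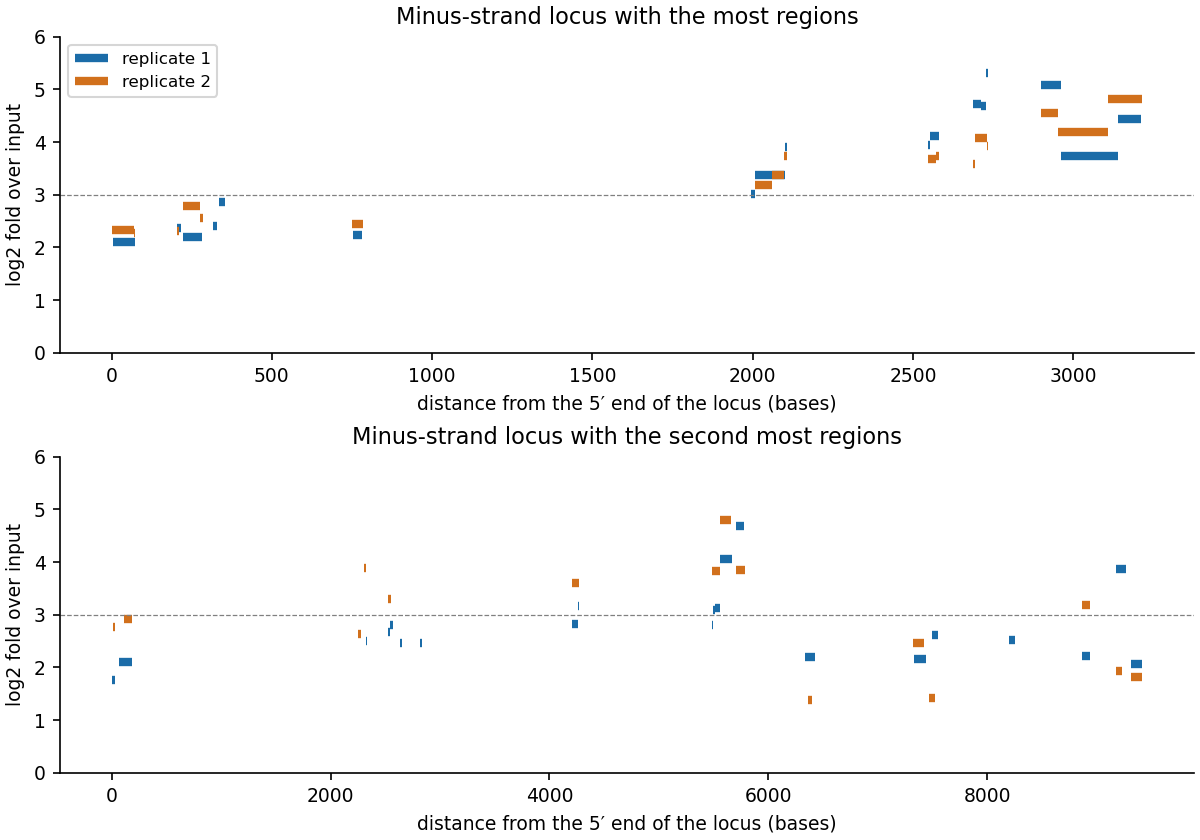
Log2 fold over input of each cluster against distance in bases from the 5′ end, for the minus-strand locus with 12 regions (31236635 to 31239849, above) and the one with 7 (31694851 to 31704264, below), with bars as long as the clusters. Blue is replicate 1, orange is replicate 2 and the dashed line marks a log2 fold of 3. In the upper locus every cluster from 1994 bases on is enriched, in either replicate. In the lower locus the highest value of each replicate lies between 5484 and 5785 bases. Enriched clusters also lie outside that span, among them 3.87 at 9172 to 9261 bases in replicate 1 and 3.88 at 2307 to 2327 bases in replicate 2.

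Before that stretch, 8 loci from 30454262 to 30894190 held 17 regions. A short plus-strand locus at 30593310 to 30594077 had 4 regions and only 5 clusters in each replicate, with means of 4.23 and 3.36, or 3.79 ± 0.62 (SD, n = 2). Its touching regions at 30593732 to 30593812 and 30593813 to 30593858 had 4.89 and 5.16 in replicate 1, and both took 3.76 from 1 cluster of replicate 2. The plus-strand locus at 30454262 to 30460814 had 3 regions side by side at its 3′ end, with means of 3.88 and 2.68. The plus-strand locus at 30688144 to 30693107 had many clusters, 30 and 22, but only 2 regions. These had 2.65 and 3.51, and 2.76 and 3.53, so that both were under the threshold in replicate 1. Their −log10 p values were at least 48.5 in both replicates and reached the limit of 400 in replicate 2 for the region at 30692279 to 30692351.

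Close to it, the minus-strand locus at 30695658 to 30698852 had 2 touching regions at its 3′ end with 2.48 and 4.64, and 2.94 and 4.05, in replicates 1 and 2. Regions at 30866762 to 30866815 and 30867438 to 30867514 on the plus strand had 2.11 and 4.05, and 2.59 and 4.01. The mean of their locus was 1.68 higher in replicate 2. The region at 30894112 to 30894189, at the 3′ end of the plus-strand locus that starts at 30877826, had 3.85 and 3.68. It was the only region of a locus with 27 and 26 clusters. On the minus strand, 30513805 to 30514002 had 2.90 and 3.55, and the 2 regions of the locus at 30652209 to 30658653 had means of 2.82 and 3.93.

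From 31498051 on, 15 loci held a region. The locus at 31694851 to 31704264 on the minus strand had 7, with means of 3.35 and 3.87, or 3.61 ± 0.37 (SD, n = 2). Of its regions 5 were enriched in both replicates, and the highest, at 31698597 to 31698706, had 4.05 and 4.79. Measured from the 5′ end, the regions enriched in both replicates began at 4263 bases and ended at 5785. The 2 others, enriched in replicate 2 alone, lay between 2307 and 2551 bases. The highest fold of any region of the band by the authors' value was 5.14, at 31765268 to 31765306 on the minus strand, with 5.79 and 4.01 in the replicates. Its neighbour at 31765318 to 31765401 had 5.40 and 4.18. Their locus had only 7 and 3 clusters, and its mean was 5.59 in replicate 1 and 4.09 in replicate 2, or 4.84 ± 1.06 (SD, n = 2).

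On the plus strand, the region at 31637745 to 31637801 had 4.36 and 4.06, in the middle of a locus of 54 clusters. On the minus strand, 31920129 to 31920175 had 4.02 and 4.05, the closest replicates among the 10 regions with the largest lower value, and its neighbour 31920032 to 31920128 had 3.51 and 4.04. The region at 31654779 to 31654935 had 3.76 and 4.01. Single regions enriched in replicate 1 alone lay at 31785344 to 31785469 (3.04 and 2.98), 31827396 to 31827509 (4.23 and 2.47) and 31937633 to 31937782 (4.16 and 2.75). The first of these missed the threshold in replicate 2 by little and had −log10 p values of 45.9 and 34.6. The minus-strand loci at 31626289 to 31633292 and 31773856 to 31774680 had 1 region each, both enriched in both replicates, with 3.43 and 3.10, and 4.11 and 3.42. The minus-strand locus at 31745008 to 31750213 had 2 regions with means of 3.35 and 3.43. The plus-strand locus at 31865826 to 31873638 had 3 regions with means of 2.88 and 3.25, and none of them was enriched in both replicates.

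A pair of loci on opposite strands had regions at 3′ ends that faced each other. The plus-strand locus at 31588620 to 31605508 ended with 5 regions from 31604888 on, and the minus-strand locus at 31606844 to 31613298 ended 1335 bases away with 4 regions up to 31607420. The 5 plus-strand regions had log2 folds of 2.25 to 2.77 in replicate 1 and 3.49 to 3.92 in replicate 2, and all were enriched in replicate 2 alone. The 4 minus-strand regions were enriched in both replicates, with a mean of 3.68 in replicate 1 and 3.66 in replicate 2. The one at the very end, 31606844 to 31606870, had 4.04 and 4.08. In the band, 4 of 641 and 4 of 594 clusters overlapped a cluster of the opposite strand, and none of the 72 regions did in either replicate. The same shares outside the band are not given here, and these counts are not read as a trait of the band. A count of 0 here concerns intervals in the lists and sets no limit on reads.

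Recurrence between the replicates was looked at over clusters that overlap by at least 1 base on 1 strand. Of the replicate 1 clusters of the band, 440 of 641 (68.6%) overlapped a cluster of replicate 2, against 42.3% on the rest of chromosome 6. Across these 440, the log2 folds of the replicates had a Pearson's r of 0.83 and a Spearman's rho of 0.79. A single value had an SD of 0.57 between replicates. The points share libraries and loci, and neighbouring clusters are not independent. Of 60 clusters enriched in replicate 1 and overlapped, 38 were enriched in replicate 2 as well, or 63.3% (50.7 to 74.4). Over the genome, enriched and overlapped clusters of replicate 1 recurred in 66.7% of cases. Clusters enriched in both replicates made up 6.51% of all overlapped replicate 1 clusters and 6.63% of all overlapped replicate 2 clusters, enriched or not. Of 84 enriched in replicate 2 and overlapped, 37 were enriched in replicate 1, or 44.0% (33.9 to 54.7), against 56.9% over the genome. On the rest of chromosome 6 these shares were 68.9% (62.8 to 74.3) and 58.1% (52.5 to 63.4).

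The band's 72 regions had a median authors' log2 fold of 3.59, with values from 3.01 to 5.14, and covered 4.96 kb. The 238 regions on the rest of chromosome 6 had a median of 3.60 and reached 6.83. Touching regions made 50 separate runs of the 72. In each replicate 68 distinct clusters lay behind the regions, so some regions repeat 1 measurement. By the cluster with the longest overlap, 40 regions (55.6%, 44.1 to 66.5) were enriched in both replicates, where 72.5% of all regions were. On the rest of chromosome 6 the share was 73.9% (68.0 to 79.1). With any overlapping cluster counted, the shares were 59.7% in the band and 75.6% on the rest of the chromosome.

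The regions without an enriched cluster in both replicates leaned to replicate 2. In the band 22 regions (30.6%, 21.1 to 42.0) were enriched in replicate 2 alone, where 17.0% of all regions were and 13.0% (9.33 to 17.9) on the rest of chromosome 6. Another 10 (13.9%) were enriched in replicate 1 alone, where 10.5% of all regions were. In 7 loci all regions were of replicate 2 alone, 5 of them among the 8 before 31200000 and the others at 31498051 to 31509768 and 31588620 to 31605508. The mean over regions was higher in replicate 2 in 13 loci and in replicate 1 in 13. Replicates lay within 1 log2 unit at 46 regions (63.9%), against 75.2% on the rest of chromosome 6. The 72 regions gave a Pearson's r of 0.03 and a Spearman's rho of 0.05, and the 238 on the rest of chromosome 6 gave 0.40 and 0.21. Every region of both sets had an authors' log2 fold of at least 3. The part of this joint choice in the correlations was not tested, and no order of the regions is read from them. These differences were not tested.

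**Figure D3:**
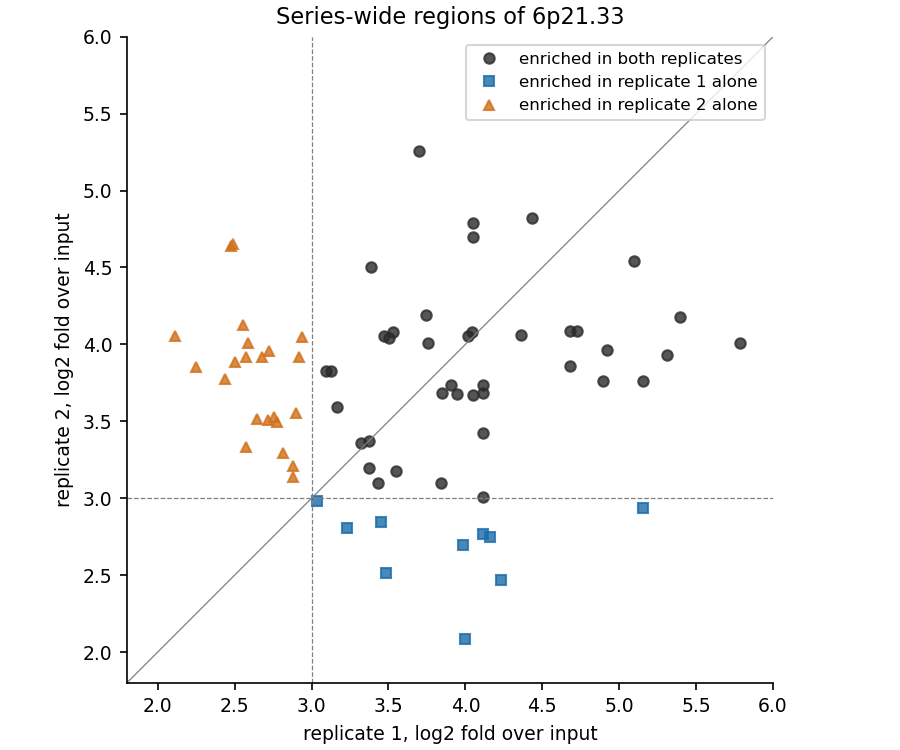
Log2 fold over input of the 72 series-wide regions of 6p21.33 in replicate 1 (horizontal) and replicate 2 (vertical), each from the cluster with the longest overlap. Black points are the 40 regions enriched in both replicates, blue squares the 10 enriched in replicate 1 alone and orange triangles the 22 enriched in replicate 2 alone, the dashed lines mark a log2 fold of 3 and the solid line equal values.

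Values near the threshold were counted in the band alone. Of 274 clusters of replicate 1 with a −log10 p of at least 3, 32 lay up to 0.5 above a log2 fold of 3 and 56 up to 0.5 below it. In replicate 2 these were 34 and 53 of 253. The matching shares elsewhere are not given here. The lowest enriched cluster had 3.01 in both replicates, and the highest cluster with that p below the fold threshold had 2.999 in replicate 1 and 2.995 in replicate 2. Another 7 and 4 clusters had a log2 fold of at least 3 but a lower −log10 p. At the edges of the band, the last region before it, at 30314518 to 30314602, had an authors' log2 fold of 4.61, and the first one inside, at 30460544 to 30460640, had 3.39. The last region inside, at 31937633 to 31937782, had 3.36, and the first one beyond, at 32130706 to 32130821, had 3.33.

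Windows of the length of the band along chromosome 6 put these numbers beside the band's surroundings. The band had more clusters (641 and 594) and more regions (72) than each of the other 93 windows with clusters, of which 51 had no region. Windows without clusters are not counted among them. The window that follows it, 32100001 to 33800000, came next on both counts, with 355 and 355 clusters and 60 regions. Its enriched shares, 14.6% and 20.6%, were above the band's 11.2% and 14.8%. Per cluster the band was thus not the richest window of the chromosome. The window from 42300001 to 44000000 had 13.0% and 12.7% and 39 regions.

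Loci of the band held more clusters than loci elsewhere, with a median of 19 against 3 on the rest of chromosome 6. Within classes of cluster number the shares of loci with a region were as follows. At 21 to 50 clusters, 14 of 22 loci of the band had one (63.6%, 43.0 to 80.3), against 25 of 186 on the rest of chromosome 6 (13.4%, 9.27 to 19.1) and 24.9% (23.4 to 26.5) on the other chromosomes. Above 50 clusters, 5 of 5 had one, against 3 of 33 and, on the other chromosomes, 286 of 832 (34.4%). At 6 to 10 clusters the band had 5 of 9, the rest of chromosome 6 had 19 of 349, and the other chromosomes had 4.58%. At 11 to 20 clusters these were 2 of 10, 27 of 278 and 13.3%. None of 10 loci of the band with 2 to 5 clusters had a region (upper limit 27.8%), against 18 of 888 (2.03%) on the rest of chromosome 6 and 0.893% on the other chromosomes. At 21 to 50 clusters the band's loci were also shorter, with a median of 6.85 kb against 17.5 kb. No test was made, since this share chose the band.

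**Figure D4:**
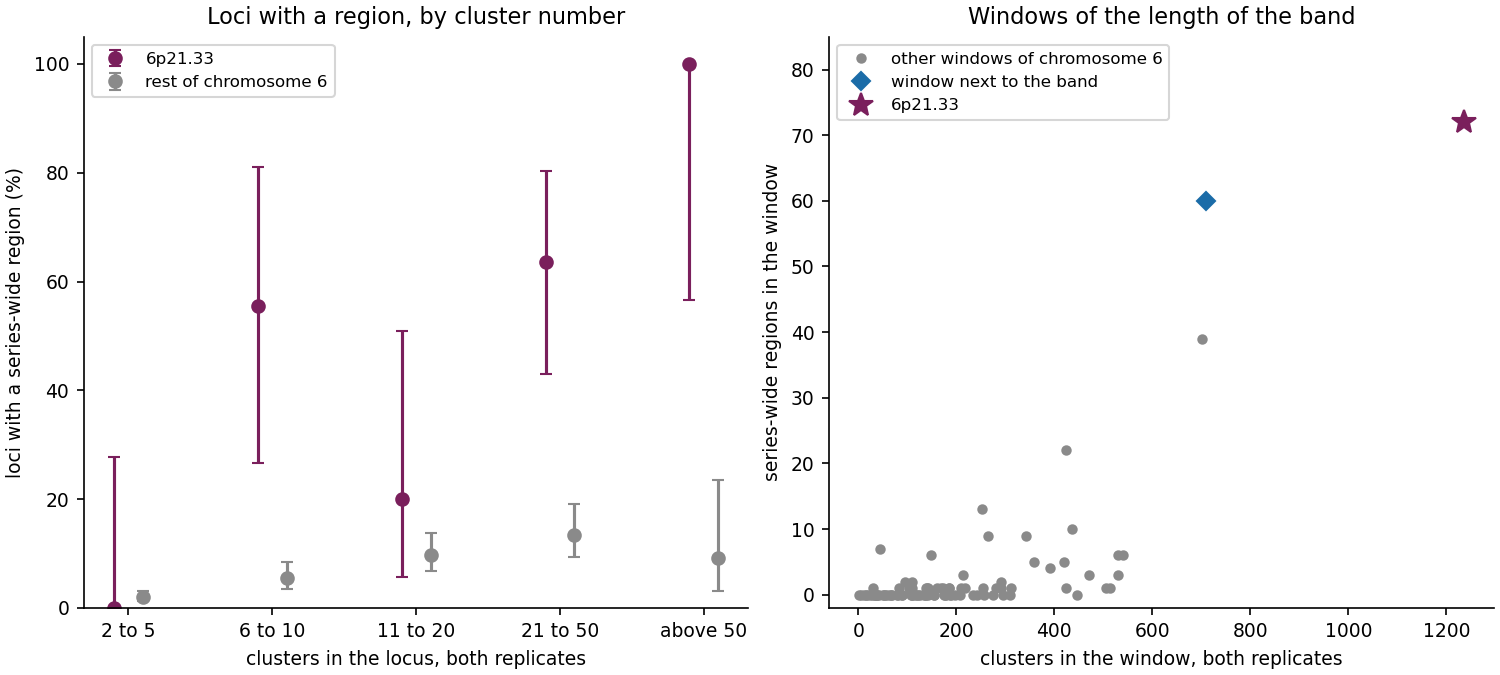
Left, percent of loci with a series-wide region by number of clusters in the locus over both replicates, for 6p21.33 and the rest of chromosome 6, with Wilson 95% intervals. Right, series-wide regions against clusters of both replicates in windows of the length of the band along chromosome 6 that held clusters. The band lies at 72 regions and the window that follows it at 60.

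Where regions lay within loci was not used to choose the band. It is given as a position between 0, the 5′ end of the locus, and 1, its 3′ end, for loci of 5 or more clusters. These ends are the outermost clusters of the locus and not the ends of a transcript. A region can therefore lie at the very end it is measured against. In 25 loci of the band, regions had a mean position of 0.808 and clusters enriched in neither replicate 0.456. The difference was 0.352 ± 0.321 (SD over loci), and regions lay nearer the 3′ end in 22 of 25 loci. On the rest of chromosome 6 it was 0.225 ± 0.377 over 71 loci, with 54 of 71 in that direction. The difference was also taken within each replicate, between its enriched clusters and its clusters that were not enriched, whatever the other replicate showed. It was 0.258 in replicate 1 and 0.264 in replicate 2 in the band, against 0.180 and 0.090 on the rest of the chromosome. Differences between both sets were not tested, and loci are not independent replicates of the experiment.

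In these loci 42 of 68 regions of the band (61.8%) lay in the last 20% of the locus, where 24.1% of the not-enriched clusters lay. None of the 68 lay in the first 20%, where 24.0% of the not-enriched clusters lay. The locus at 30593310 to 30594077 is not among the 25, since it had no cluster that was enriched in neither replicate. Its 4 regions had positions of 0.0743, 0.602, 0.685 and 0.929, so 1 of them lay in the first 20%. On the rest of chromosome 6, 41.7% of the regions were in the last and 17.7% in the first 20%, where 26.7% and 29.9% of the not-enriched clusters lay. By enriched clusters of a single replicate, the first 20% held 3 of 72 (4.17%) in the band in replicate 1 and 0 of 87 in replicate 2. On the rest of chromosome 6 these shares were 16.0% and 22.6%. The exceptions in the band were the minus-strand loci at 30652209 to 30658653, 31694851 to 31704264 and 31762768 to 31766282, with differences of −0.18, −0.04 and −0.60. The last of these held the region with the authors' value of 5.14, and its regions had a mean position of 0.273.

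**Figure D5:**
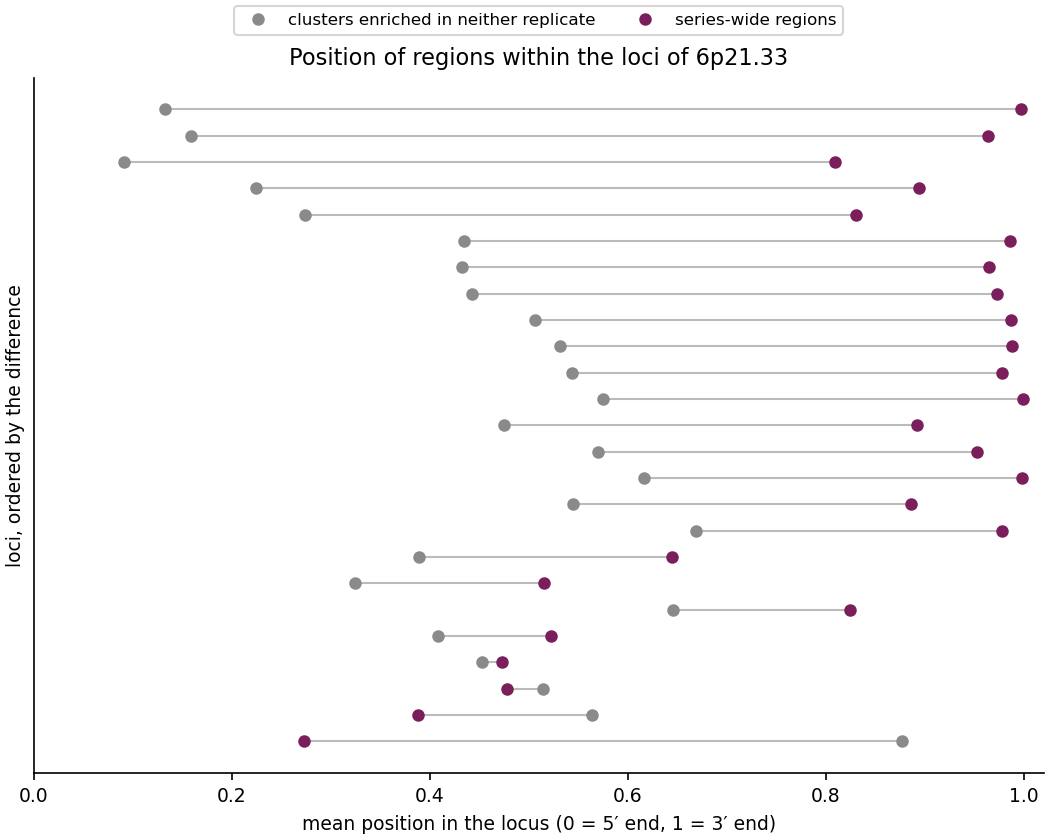
Mean position within the locus (0 is the 5′ end and 1 the 3′ end) of series-wide regions (purple) and of clusters enriched in neither replicate (grey) in the 25 loci of 6p21.33 with both, 1 locus per line and ordered by the difference. Regions lie to the right of the grey point in 22 loci and to the left in 3.

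Clusters below input made up a smaller share in the band than on the rest of the chromosome or over all clusters, and 2 loci held 32 of the 53 in replicate 1 and 27 of the 41 in replicate 2. A negative log2 fold was present in 53 of 641 clusters of replicate 1 (8.27%, 6.38 to 10.7) and 41 of 594 of replicate 2 (6.90%, 5.13 to 9.23), against 15.3% and 14.8% on the rest of chromosome 6 and 11.6% and 11.2% over all clusters. No cluster below input was present in 39 of the 58 loci. The matching share of loci elsewhere is not given here, so this count is not read as a trait of the band. The plus-strand locus at 31707816 to 31731791 had 17 of its 22 clusters below input in replicate 1 and 12 of 19 in replicate 2. Its median log2 folds were −0.74 and −0.21, and it had no enriched cluster. The minus-strand locus at 31498051 to 31509768 had 15 of 40 and 15 of 38 below input, and yet held 1 region, at 31498051 to 31498084 at its 3′ end, with 2.88 and 3.14.

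Low values recurred between the replicates. Among the 440 overlapped clusters, 32 were below input in replicate 1 and 30 by the partner in replicate 2, and 25 in both. Many of the 25 lay in the minus-strand locus at 31498051 to 31509768, so they are not independent. The same share over all overlapped clusters is not given here, and the count is not read as a trait of the band. The lowest cluster of replicate 1, at 31590939 to 31590983 on the plus strand, had −3.58 and its partner −2.59. It lay in the same locus as the 5 regions that end at 31605508. At 31721521 to 31721573 the values were −2.35 and −3.19, at 31803046 to 31803103 they were −2.82 and −2.91, and at 31508877 to 31508928 on the minus strand −2.62 and −2.91. The authors' −log10 p is 0 for every cluster below input, so these values carry no test.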

How the data were processed

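The authors deposited, per the labels, a list of intervals for each LARP4 eCLIP replicate and 1 for the series, with 6 columns and no header. From the values, the deposited columns hold a −log10 p and a log2 fold over input. Per the submitters' processing notes, UMI-tools 1.0.0, cutadapt 1.14, STAR 2.7.6a, SAMtools 1.6 and hg19 were used. The peak caller, the depth scaling and how replicates were combined: not given in the sources used here.

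Starts were converted to 1-based positions. A region took each replicate's value from the longest-overlapping cluster, and SDs are between the 2 replicates. Shares have Wilson 95% intervals. Members, lists and thresholds were chosen with earlier results of these data known, and no test was run. Loci with a region and the 10 regions with the highest minimum over the replicates were to be named. Other named positions, the stretch limits and the windows were chosen after their values were seen. Overlaps and loci were tested on simulated data. Gene names came from RefSeq tables of GRCh38.p14, whose coordinates were not used with the lists. Genes could not be paired with loci, and the planned description by gene group was not made. Tables were handled with pandas 2.3.3 and numpy 2.4.6 under Python 3.11.15, intervals computed with SciPy 1.17.1 and figures drawn with matplotlib 3.10.9.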

Additional observations from a re-analysis of the deposited data

How the results depend on the processing

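Of 35 alternatives, 19 left the value within its replicate spread, its interval or 1.5 times its count, 16 moved it and 0 reversed it. Some of the 19 could not have moved. No interval crossed an edge, so counting those that touch the band changed nothing, and another comparison set leaves the band's own value as it was. With n = 2, a single replicate always lies within 1 SD of the mean. The tally is therefore not read as a measure of stability. The mean enriched share of both replicates, 13.0% ± 2.53 (SD, n = 2), was 4.30% with a log2 fold minimum of 4, 33.4% with 2 and 9.89% with touching enriched clusters merged. Without the locus of 12 regions, an alternative chosen after seeing the data, it was 11.4%. The mean of the median log2 folds, 1.74, was 2.55 where −log10 p reached 3 and 1.96 among overlapped clusters. Recurrence in replicate 2, 63.3%, was 50.0% with a fold minimum of 4 and 82.1% with 2. Of the 72 regions, 19 had an authors' log2 fold of at least 4 and 40 an enriched cluster in both replicates. Loci with a region, 44.8%, were 22.0% (29 of 132) with a gap of 1 kb, 62.5% (25 of 40) with 10 kb and 60.0% among loci of at least 10 clusters, against 1.88%, 5.72% and 10.7% on the rest of chromosome 6. The difference in position, 0.352, was 0.305 with a gap of 1 kb and 0.283 with 10 kb. With 1 replicate left out, the enriched share ran from 11.2% to 14.8%. The median log2 fold ran from 1.70 to 1.77 (1.698 to 1.775) and the share below input from 6.90% to 8.27%. For 3 other results the single replicates gave a related measure. Of the 72 joint regions, 50 had an enriched cluster in replicate 1 and 62 in replicate 2. Loci with an enriched cluster were 25 of 56 (44.6%) in replicate 1 and 30 of 56 (53.6%) in replicate 2. On the rest of chromosome 6 these shares were 6.21% and 7.48%. The difference in position, taken from enriched clusters in place of regions, moved from 0.352 to 0.258 and 0.264. Where a value moved with a threshold, fewer or more clusters passed by construction, and otherwise the cause was not tested. No paired analysis was possible because the inputs have no list of their own and every value is already a ratio to input. Without read counts, single folds have no interval.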
